A study of Homo sapiens with 12 samples.

Results

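Ribosome biogenesis and nucleolar genes were followed here as a readout of the fall in MYC mRNA in T47D-MTVL cells. The list named 46 genes, and 45 of them were found among the 57820 genes of the count tables. BOP1 was the 1 listed gene that was not matched, and it is not analysed here. All 45 passed the filter on low counts in each comparison. The cells are T47D, a hormone-responsive human breast cancer line, carrying a luciferase reporter under the MMTV promoter. They were kept in phenol-red-free medium with charcoal-treated serum and given no R5020, a synthetic progestin. RNA was sequenced from 12 libraries in 6 groups of 2. Poly(A) RNA was taken after knockdown of PADI2 by siRNA (siPADI2) and after a control siRNA (siCtrl). It was also taken from cells given RNA polymerase II (RNAP2) that carries an HA tag and resists alpha-amanitin, labelled R1810A in 1 group and wild type (WT) in the other. Both RNAP2 groups had 24 hours of expression and then 12 hours in 6 µg/ml alpha-amanitin, the mushroom toxin that stops endogenous RNAP2. RNA held on chromatin came from siPADI2 and siCtrl cells without hormone. The polymerase was expressed by transient transfection over the cells' own gene, and PADI2 was lowered by siRNA, not deleted. PADI2 is a peptidylarginine deiminase, which turns arginine in proteins into citrulline.

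Ribosomes are put together in the nucleolus. RNA polymerase I copies the rRNA genes into a long precursor, small nucleolar ribonucleoproteins (snoRNPs) guide its methylation and pseudouridylation, and separate sets of assembly factors, helicases and GTPases build the small and the large subunit. MYC is known to raise the transcription of many of these genes through a DNA element called the E-box, and growing breast cancer cells keep the pathway active.

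The E-box letters CACGTG were searched in the window from 250 bases before to 50 bases after each annotated gene start (RefSeq, GRCh38.p14). The element reads the same on both strands. It was present in 18 of the 38 listed genes with a window, which is 47.4%. Among the genes tested after siPADI2 in poly(A) RNA the share was 12.0% (1477 of 12277), and over all protein-coding genes with a window it was 10.9%. A match describes the letters and does not show that a factor binds there. The windows of 30 bases below are shown because they belong to E-box genes on both sides of the results. The first 4 genes had higher mRNA in both poly(A) comparisons, the next 3 had lower mRNA after siPADI2, and MYBBP1A had lower mRNA in the libraries labelled R1810A. The E-box is in capitals.
RRP9: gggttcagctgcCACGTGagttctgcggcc
PES1: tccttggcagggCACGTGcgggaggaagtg
NOL6: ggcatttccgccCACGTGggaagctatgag
GNL2: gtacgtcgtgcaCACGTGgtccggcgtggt
FBL: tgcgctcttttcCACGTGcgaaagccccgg
UTP18: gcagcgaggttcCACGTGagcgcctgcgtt
BYSL: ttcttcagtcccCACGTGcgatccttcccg
MYBBP1A: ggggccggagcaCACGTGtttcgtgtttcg
These windows lie at chr3:51941892-51941921 (minus strand) for RRP9, chr22:30591880-30591909 (minus) for PES1, chr9:33473894-33473923 (minus) for NOL6 and chr1:37595917-37595946 (minus) for GNL2. They lie at chr19:39846356-39846385 (minus) for FBL, chr17:51260538-51260567 (plus) for UTP18, chr6:41921515-41921544 (plus) for BYSL and chr17:4555340-4555369 (minus) for MYBBP1A. Counted from the annotated start, taken as base 1, the E-box began at base 14 in PES1 and in NOL6, at base 4 in GNL2 and at base 7 in FBL. In UTP18 it began at base 5, in BYSL at base 29 and in MYBBP1A at base 28. In RRP9 it began 5 bases before the start, which is position -5. UTP18 held another E-box at position -89.

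Total counts, in units of 1000000, ran from 44.32 to 132.76 in the poly(A) libraries, with siCtrl replicate 1 the shallowest. In chromatin RNA they were 2.8 and 2.72 after siPADI2 and 7.04 and 6.67 after siCtrl in the same units. Chromatin values are therefore the less precise, and depth differed between their groups. Levels are given as counts per 1000000 of the TMM-scaled library (CPM), where TMM is a scaling that assumes most genes do not change. PADI2 had 1.83 and 1.88 CPM after siPADI2, against 24.0 and 22.6 CPM after siCtrl. It had 3.13 and 2.35 CPM in the libraries labelled R1810A, against 48.9 and 50.7 CPM in the WT libraries. That label gives no PADI2 siRNA, and what lowered PADI2 in these libraries was not tested. The group is called the libraries labelled R1810A throughout. In chromatin RNA PADI2 had 8.52 and 14.2 CPM after siPADI2, against 34.9 and 32.5 CPM after siCtrl. All 10 luminal breast epithelial markers were measured. The log2 fold change was negative for 9 of them after siPADI2, for 8 in the libraries labelled R1810A and for 9 in chromatin RNA. EPCAM went the other way, with 268 and 259 CPM after siPADI2 against 161 and 182 CPM after siCtrl. EPCAM had 221 and 232 CPM in the libraries labelled R1810A, against 176 and 177 CPM in WT. The summed level of the 10 markers moved with the groups. It was 6159.7 and 5737 CPM after siPADI2 against 11372 and 10501 CPM after siCtrl, and 5926 and 6698 CPM in the libraries labelled R1810A against 10039 and 10571 CPM in WT. In chromatin RNA it was 1586 and 1082 CPM after siPADI2, against 2581 and 2411 CPM after siCtrl. Of 11 measured markers of basal, mesenchymal, endothelial and immune cells, 6 or 7 were below 0.1 CPM in each poly(A) library. Their sum was 54.9 to 80.3 CPM in poly(A) RNA and 243 to 309 CPM in chromatin RNA. PTPRC, LST1 and CD68, immune markers, were below 0.1 CPM in each poly(A) library. On chromatin after siPADI2, PTPRC had 58.9 and 51.7 CPM and LST1 had 19.5 and 25.5 CPM, while CD68 had 0.71 and 0.354 CPM. Several nucleolar genes lie in that range on chromatin, so a level of this size alone does not show an expressed gene. What these marker reads come from was not tested. The part of these marker changes, or of a loss of cells, in the results below was not tested. Lower mRNA per cell and fewer cells of a kind cannot be told apart in bulk RNA.

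MYC mRNA was lower in each comparison, while the listed nucleolar genes did not fall with it as a group in poly(A) RNA. MYC, the transcription factor itself, had 4.33 and 4.77 CPM after siPADI2, against 11.2 and 10.9 CPM after siCtrl. This was a log2 fold change of -1.28 ± 0.12 (SE, edgeR adjusted p = 8.33e-12). It had 2.42 and 2.69 CPM in the libraries labelled R1810A, against 7.43 and 6.96 CPM in WT (log2 fold change -1.49 ± 0.109, adjusted p = 1.77e-07). In chromatin RNA it had 11.4 and 12.4 CPM after siPADI2, against 25.8 and 27.5 CPM after siCtrl (-1.16 ± 0.25, adjusted p = 5.17e-05). The groups did not overlap in any of these 3 comparisons. Summed over the 45 nucleolar genes, the level was 4177 and 4061 CPM after siPADI2, against 3894 and 3929.8 CPM after siCtrl. It was 4014 and 4345 CPM in the libraries labelled R1810A, against 3929 and 4001 CPM in WT. In poly(A) RNA the summed level was thus higher in each library of the siPADI2 and R1810A groups than in its controls. The sum weighs abundant genes most. NPM1 alone had a mean of 1217 CPM in the libraries labelled R1810A, against 1006 CPM in WT. NOLC1 had a mean of 179 CPM after siPADI2, against 88.7 CPM after siCtrl. The log2 fold change was negative for 18 of the 45 genes after siPADI2 and for 19 in the libraries labelled R1810A. In chromatin RNA the sum was 1559 and 1428 CPM after siPADI2, against 1782 and 1714 CPM after siCtrl, lower in both siPADI2 libraries.

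After siPADI2, 16 of the 45 genes were called higher in poly(A) RNA, 7 were called lower and 22 were not called, at an edgeR adjusted p under 0.05. Of all genes tested 28.8% were called higher and 27.9% lower, 56.7% in all, against 35.6% and 15.6% of the nucleolar genes. The median log2 fold change was 0.05 over the nucleolar genes and 0.01 over all genes. For the libraries labelled R1810A, 14 were called higher and 5 lower. There 22.6% of all genes were called higher and 24.3% lower, 46.9% in all, against 31.1% and 11.1% of the nucleolar genes, and the medians were 0.07 and -0.02. Both shares of lower calls were below those of all genes, and both shares of higher calls lay above them. All 45 are protein-coding, as are 13856 of the 18123 genes tested after siPADI2 with a known GC content. Of these, 1989 of 5170 under 45% GC and 761 of 2311 from 45 to 50% were called higher. So were 590 of 2158 from 50 to 55% and 1200 of 4217 over 55%. Whether the nucleolar genes exceed protein-coding genes in higher calls was not tested. The 7 lower calls after siPADI2 became 4 without siPADI2 replicate 1 or 2, and the 14 higher calls in the libraries labelled R1810A became 7 without WT replicate 1 or R1810A replicate 2. In chromatin RNA 2 were called higher and 10 lower. Of all genes 12.2% were called higher and 20.1% lower, 32.4% in all, against 4.44% and 22.2% of the nucleolar genes. The median was -0.23 over the nucleolar genes and 0.03 over all genes. Over the 17758 protein-coding genes tested on chromatin it was -0.15, nearer to that of the nucleolar genes. With total counts in place of TMM the median of all genes after siPADI2 in poly(A) RNA moved to 0.19. Then 25 nucleolar genes were called higher and 3 lower, with 7398 genes called higher and 3636 lower overall. The median over the nucleolar genes was 0.23 on that scale, close to the median of all genes.

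**Figure D1:**
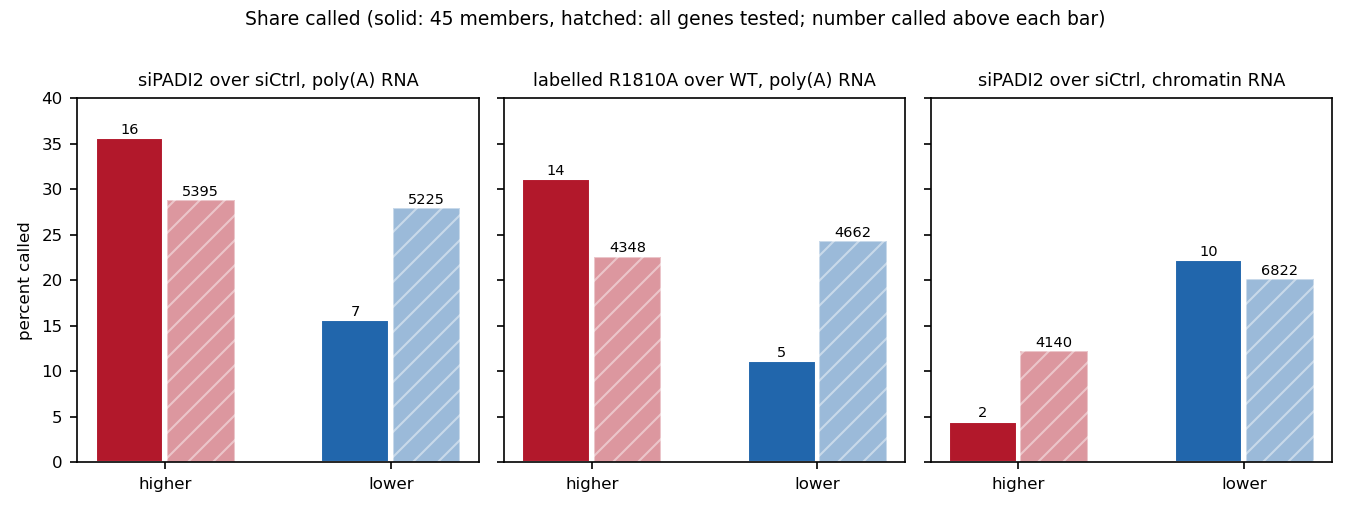
Percent of genes called higher (red) and lower (blue) at an adjusted p under 0.05 in each comparison. Solid bars are the 45 nucleolar genes and hatched bars all genes tested, with the number called above each bar: in both poly(A) panels the solid blue bar (7 and 5 genes) is shorter than its hatched neighbour.

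Of the 5 genes of rRNA transcription, TCOF1 and LYAR were called higher and UBTF lower after siPADI2. In the libraries labelled R1810A, TCOF1, MYBBP1A and UBTF were called lower. The shares of all genes tested were 28.8% higher and 27.9% lower, and 22.6% and 24.3% for the libraries labelled R1810A. UBTF, the HMG-box factor that binds rRNA gene promoters, had 115 and 105 CPM after siPADI2, against 144 and 130.4 CPM after siCtrl (log2 fold change -0.31 ± 0.0841, adjusted p = 0.00162). It had 119 and 128 CPM in the libraries labelled R1810A, against 157 and 164 CPM in WT (-0.38 ± 0.063, adjusted p = 0.000273). UBTF was thus lower in all 4 libraries with low PADI2 than in their controls. Its call after siPADI2 was lost without siPADI2 replicate 2 (-0.24, adjusted p = 0.078) and with total counts as library sizes (-0.13, adjusted p = 0.171). RRN3, which brings RNA polymerase I to those promoters, had 94.6 and 96.1 CPM after siPADI2 against 99.3 and 105 CPM after siCtrl. It had 80.0 and 84.5 CPM in the libraries labelled R1810A, against 88.2 and 89.0 CPM in WT. It was the lower in both, without passing the test (-0.1 ± 0.0818, adjusted p = 0.287, and -0.11 ± 0.0581, adjusted p = 0.152). With GC content taken out of each library RRN3 was called lower after siPADI2 (-0.17, adjusted p = 0.0149).

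TCOF1, known as treacle, is a nucleolar scaffold for rRNA transcription and processing (hg19 chr5:149737202-149779871, plus strand). It had 58.4 and 65 CPM after siPADI2, against 42.6 and 40.5 CPM after siCtrl (0.57 ± 0.0875, adjusted p = 5.83e-07). It had 53.0 and 54.5 CPM in the libraries labelled R1810A, against 75.6 and 77.8 CPM in WT (-0.51 ± 0.0573, adjusted p = 8.53e-06). The groups did not overlap in either comparison, and the direction was opposite. The controls themselves differed, with a mean of 41.6 CPM after siCtrl and 76.7 CPM in WT, each scaled within its own experiment. MYBBP1A, a nucleolar protein that restrains rRNA transcription, had 37.3 and 38.0 CPM after siPADI2 against 40.6 and 36.2 CPM after siCtrl, and these overlapped (-0.02 ± 0.0912, adjusted p = 0.839). It was lower in the libraries labelled R1810A, with 26.5 and 27.7 CPM against 35.8 and 34.8 CPM in WT (-0.38 ± 0.0628, adjusted p = 0.000245). LYAR, a zinc-finger protein of the nucleolus, passed the test after siPADI2 by little (0.24 ± 0.107, adjusted p = 0.0496) and not in the libraries labelled R1810A (0.03 ± 0.0808, adjusted p = 0.792).

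**Figure D2:**
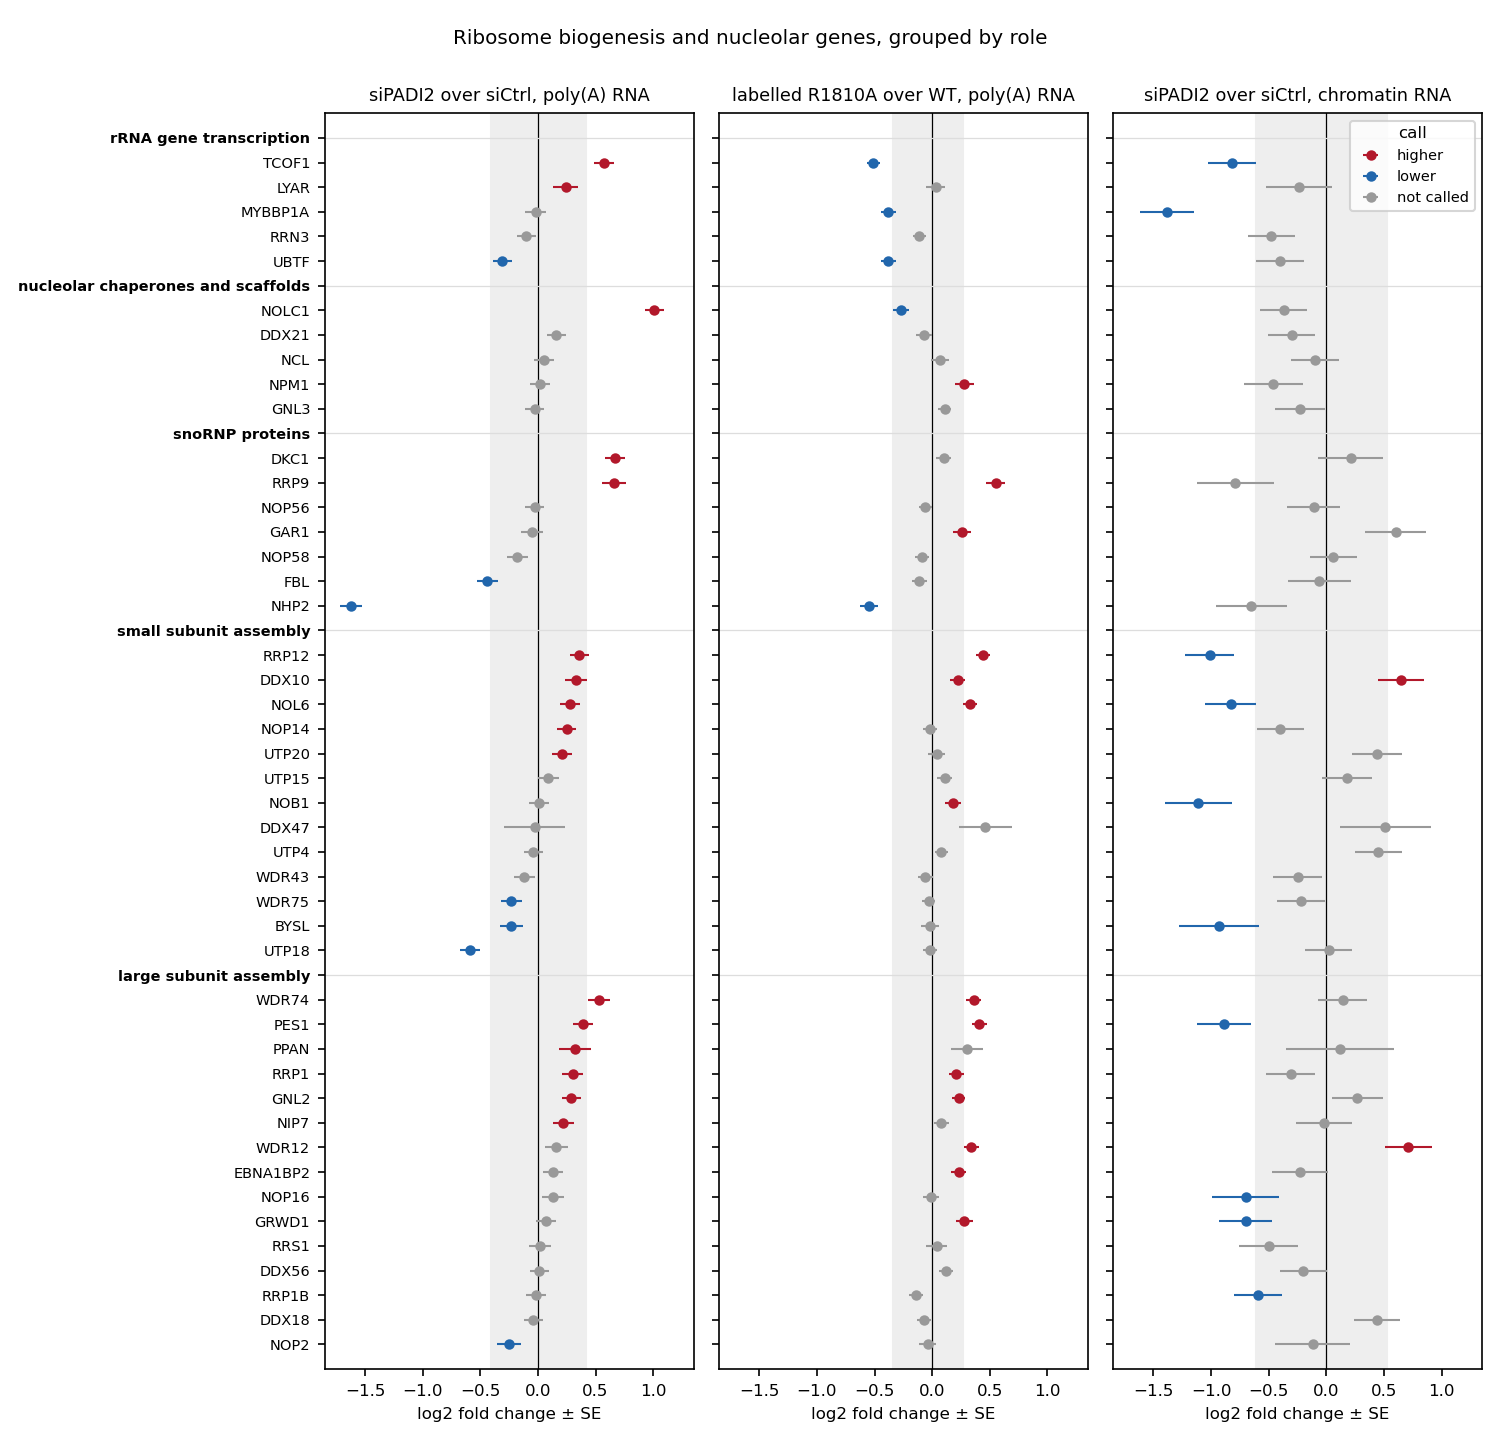
Log2 fold change ± SE (x axis, 2 libraries per group) of the 45 genes, grouped by role and ordered within a role by the siPADI2 poly(A) value. Red and blue mark genes called higher and lower, and the grey band spans the middle 50% of all genes tested: most points of both poly(A) panels lie inside it, and NHP2 lies farthest to the left and NOLC1 farthest to the right in the siPADI2 poly(A) panel.

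Among chaperones and scaffolds of the nucleolus, 1 of 5 was called after siPADI2 and 2 of 5 in the libraries labelled R1810A. The shares of all genes called were 56.7% and 46.9%. NCL, nucleolin, had 507 and 495 CPM after siPADI2 against 490.3 and 480.2 CPM after siCtrl (0.05 ± 0.0849, adjusted p = 0.671). It had 540.4 and 604 CPM in the libraries labelled R1810A, against 540.1 and 552 CPM in WT, which overlapped (0.07 ± 0.0776, adjusted p = 0.512). NPM1, nucleophosmin, is a histone and ribosomal protein chaperone and had the highest level of the list per length, 256 CPM per kilobase of exon after siCtrl. NCL followed with 70.0 and DDX21, an RNA helicase, with 52.9 CPM per kilobase. NPM1 had 1047 and 946 CPM after siPADI2 against 965 and 994 CPM after siCtrl, which overlapped (0.02 ± 0.0886, adjusted p = 0.833). With total counts as library sizes, which put the median of all genes at 0.19, NCL (0.23, adjusted p = 0.015) and NPM1 (0.21, adjusted p = 0.0318) were called higher after siPADI2. It was higher in the libraries labelled R1810A, with 1168 and 1267 CPM against 1002 and 1009 CPM in WT (0.28 ± 0.0846, adjusted p = 0.0163). This call was lost without WT replicate 1 (0.27, adjusted p = 0.216) or without R1810A replicate 2 (0.22, adjusted p = 0.0745).

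NOLC1, also called Nopp140, a scaffold that carries snoRNPs through the nucleolus, rose most of the 45 after siPADI2 (hg19 chr10:103911933-103923627, plus strand). It had 180.1 and 178 CPM after siPADI2, against 87.5 and 89.9 CPM after siCtrl, a 2.02-fold higher level (log2 fold change 1.01 ± 0.0823, adjusted p = 1.47e-13). NOLC1 had 213 and 235 CPM in the libraries labelled R1810A, against 261 and 281 CPM in WT, and was lower (-0.27 ± 0.071, adjusted p = 0.00625). The groups did not overlap in either experiment. The control means were far apart, 88.7 CPM after siCtrl and 271 CPM in WT. The mean of 224 CPM in the libraries labelled R1810A lay above the 179 CPM after siPADI2. The 2 opposite changes thus start from different levels, and why these differ was not tested. DDX21 and GNL3, the nucleolar GTPase nucleostemin, were called in none of the comparisons.

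**Figure D3:**
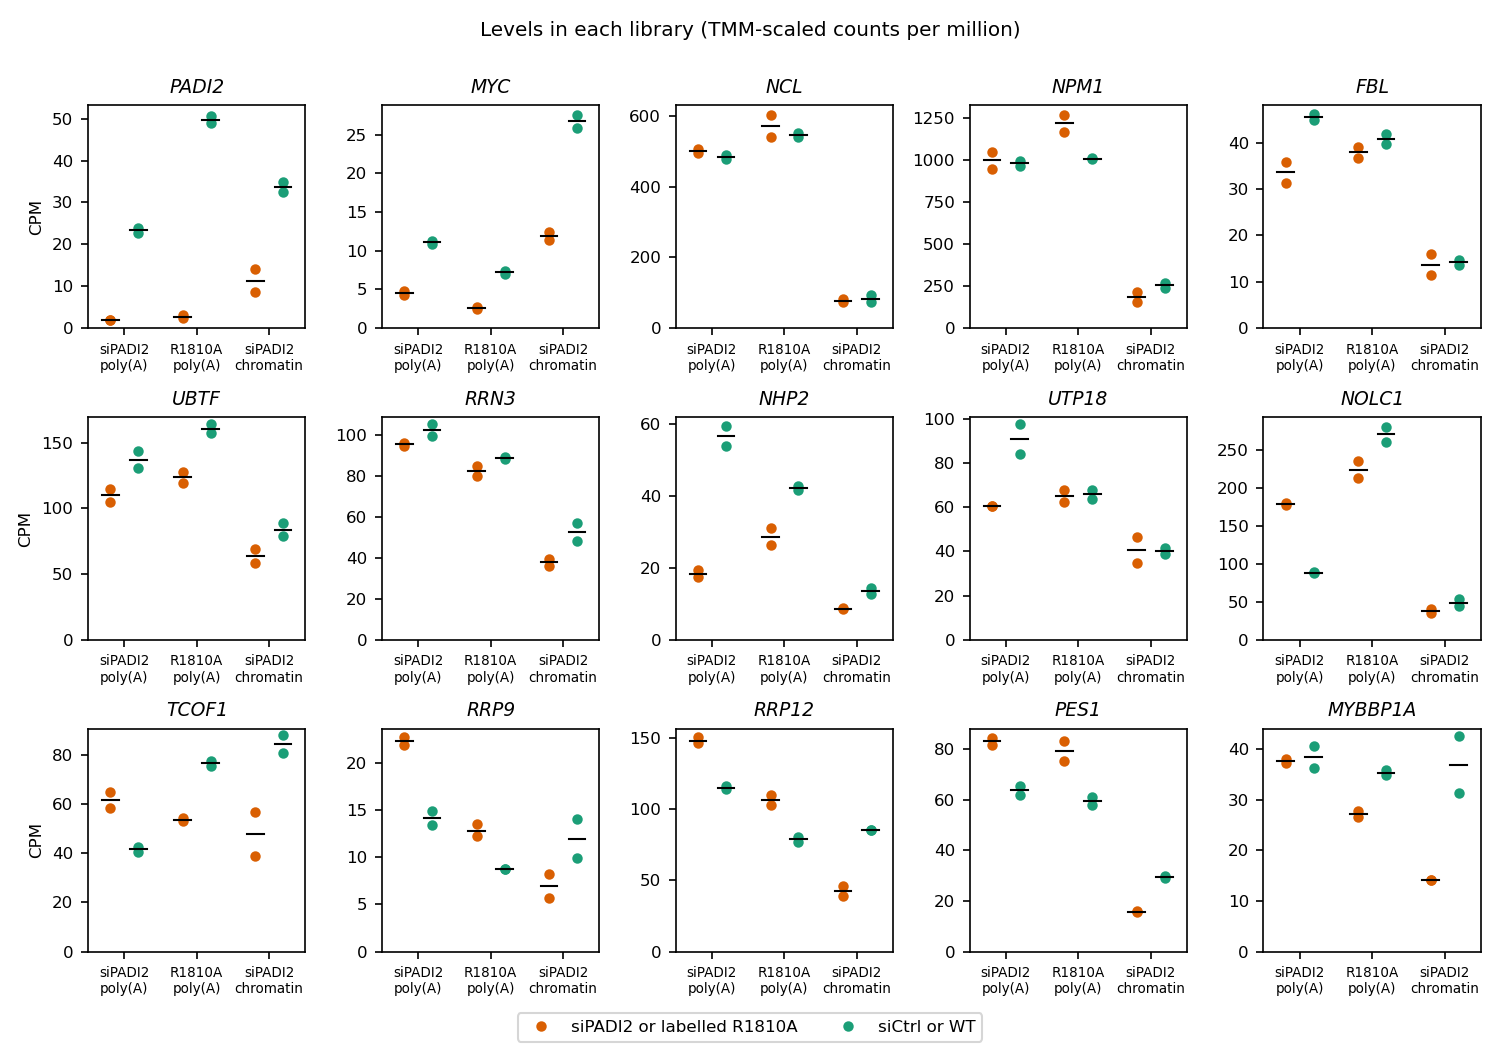
CPM (y axis, from 0) of PADI2, MYC and 13 nucleolar genes in every library. Orange points are siPADI2 or labelled R1810A libraries, green points to their right the siCtrl or WT libraries, and black lines are group means: PADI2 and MYC are lower in all 3 pairs of groups, and NCL lies at nearly the same height in each pair.

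The snoRNP proteins split within 1 particle. NHP2, a core protein of the H/ACA snoRNP, which turns uridine into pseudouridine, fell most of the list after siPADI2 (hg19 chr5:177576461-177580968, minus strand). It had 19.4 and 17.4 CPM after siPADI2, against 59.3 and 53.8 CPM after siCtrl, a 3.08-fold lower level (log2 fold change -1.62 ± 0.0949, adjusted p = 8.96e-18). NHP2 had 26.4 and 31.1 CPM in the libraries labelled R1810A, against 41.7 and 42.7 CPM in WT (-0.55 ± 0.0792, adjusted p = 0.000199). Its groups stood apart in both experiments. DKC1, dyskerin, is the pseudouridine synthase of the same particle. It had 61.8 and 61.5 CPM after siPADI2, against 37.8 and 39.7 CPM after siCtrl (0.67 ± 0.0861, adjusted p = 1.65e-08), and 55.5 and 61.4 CPM in the libraries labelled R1810A against 53.7 and 55 CPM in WT (0.1 ± 0.0636, adjusted p = 0.198). GAR1, another protein of that particle, gave -0.05 ± 0.0978 after siPADI2 (adjusted p = 0.69) and was called higher in the libraries labelled R1810A (0.26 ± 0.0762, adjusted p = 0.0125).

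In the box C/D particle, which methylates rRNA, FBL is the methyltransferase fibrillarin. FBL had 35.9 and 31.4 CPM after siPADI2, against 46.3 and 45 CPM after siCtrl (-0.44 ± 0.0916, adjusted p = 8.84e-05). It had 36.8 and 39.1 CPM in the libraries labelled R1810A, against 39.8 and 41.8 CPM in WT, lower without passing the test (-0.11 ± 0.063, adjusted p = 0.19). The other core proteins NOP56 and NOP58 were called in no comparison, with log2 fold changes of -0.03 and -0.18 after siPADI2 and of -0.06 and -0.09 in the libraries labelled R1810A. With GC content taken out NOP58 was called lower after siPADI2 (-0.25, adjusted p = 0.00409). RRP9, the protein specific to the U3 particle, rose in both experiments. It had 22.7 and 21.9 CPM after siPADI2, against 14.9 and 13.4 CPM after siCtrl (0.66 ± 0.102, adjusted p = 6.39e-07), and 12.2 and 13.5 CPM in the libraries labelled R1810A, against 8.76 and 8.74 CPM in WT (0.55 ± 0.0834, adjusted p = 0.000115). RRP9 carries the E-box at position -5 shown above.

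Of 13 small subunit factors, 5 were called higher and 3 lower after siPADI2, and 4 were called higher in the libraries labelled R1810A. After siPADI2 these are 38.5% and 23.1%, against 28.8% and 27.9% of all genes tested. In the libraries labelled R1810A they are 30.8% and 0.0%, against 22.6% and 24.3%. There edgeR called 0 lower, also at an unadjusted p under 0.05, and DESeq2 called 0. UTP18, a protein of the large U3-containing processome, fell after siPADI2 (hg19 chr17:49337889-49375297, plus strand). It had 60.3 and 60.4 CPM after siPADI2, against 83.8 and 97.5 CPM after siCtrl (-0.59 ± 0.0858, adjusted p = 2.08e-07). In the libraries labelled R1810A its 62.2 and 67.9 CPM overlapped the 63.9 and 67.8 CPM of WT (-0.02 ± 0.0637, adjusted p = 0.854). BYSL, bystin, a late small subunit factor, had 22.8 and 20.9 CPM after siPADI2 against 26.4 and 25.1 CPM after siCtrl (-0.23 ± 0.0971, adjusted p = 0.0405). That call was lost without siCtrl replicate 1 (-0.20, adjusted p = 0.131) and without siPADI2 replicate 1 (-0.30, adjusted p = 0.0578) or 2 (-0.16, adjusted p = 0.333). WDR75, a processome protein, had 53.4 and 59.1 CPM after siPADI2 against 61.0 and 70.2 CPM after siCtrl (-0.23 ± 0.0878, adjusted p = 0.0275).

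RRP12, a factor of small subunit maturation and export, had 150.5 and 146 CPM after siPADI2, against 116 and 114 CPM after siCtrl (0.36 ± 0.0815, adjusted p = 0.000249). RRP12 had 103 and 110.0 CPM in the libraries labelled R1810A, against 76.9 and 80.4 CPM in WT (0.44 ± 0.0608, adjusted p = 5.99e-05). NOL6, a processome protein, had 67.9 and 64.3 CPM after siPADI2 against 57.6 and 51.5 CPM after siCtrl (0.28 ± 0.0859, adjusted p = 0.00535). It had 59.0 and 60.9 CPM in the libraries labelled R1810A against 46.5 and 48.5 CPM in WT (0.33 ± 0.0585, adjusted p = 0.000386). Both genes therefore lay above their controls in every library of both experiments. The helicase DDX10 was also called higher in both (0.33 and 0.22). NOP14 and UTP20, processome proteins, were called higher after siPADI2 alone (0.25 and 0.21), and NOB1, the endonuclease that forms the end of 18S rRNA, in the libraries labelled R1810A alone (0.18). Of these 3, none passed the test of the difference between the experiments.

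Of the 15 large subunit factors found, 6 were called higher and 1 lower after siPADI2, and 7 were called higher in the libraries labelled R1810A. There edgeR called 0 lower, with 1 at an unadjusted p under 0.05, and DESeq2 called 0. PES1, which forms a complex with WDR12 and BOP1 on the maturing large subunit, had 84.5 and 81.8 CPM after siPADI2, against 65.5 and 61.9 CPM after siCtrl (0.39 ± 0.083, adjusted p = 0.000134). It had 75.4 and 83.1 CPM in the libraries labelled R1810A, against 58.1 and 61.0 CPM in WT (0.41 ± 0.0642, adjusted p = 0.000157). Its partner WDR12 had 23.7 and 23.5 CPM after siPADI2 against 20.5 and 21.7 CPM after siCtrl, not called (0.16 ± 0.097, adjusted p = 0.16). WDR12 was higher in the libraries labelled R1810A, with 26.2 CPM in both against 20.5 and 20.8 CPM in WT (0.34 ± 0.0643, adjusted p = 0.000652). WDR74, a WD-repeat assembly factor, had 35.1 and 33.6 CPM after siPADI2, against 25.2 and 22.6 CPM after siCtrl (0.53 ± 0.0952, adjusted p = 9.8e-06). It had 21.9 and 22.7 CPM in the libraries labelled R1810A, against 17.5 and 17.2 CPM in WT (0.36 ± 0.0673, adjusted p = 0.000663).

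NOP2, a methyltransferase of large subunit rRNA, was the 1 large subunit factor called lower after siPADI2. It had 14.0 and 15.1 CPM after siPADI2, against 17.2 and 17.4 CPM after siCtrl (-0.25 ± 0.103, adjusted p = 0.0363). That call was lost without any 1 of the 4 libraries, with adjusted p from 0.0598 to 0.245, and NOP2 was not called in the libraries labelled R1810A (-0.04 ± 0.0763). The GTPase GNL2 and RRP1 were called higher in both experiments, by 0.29 and 0.3 after siPADI2 and by 0.23 and 0.21 in the libraries labelled R1810A. PPAN and DDX47 are uncertain, since 71.8% and 36.5% of their exonic bases lie in exons of another gene on the same strand, whose reads the authors' counting leaves out. They had the lowest levels of the list per length, 1.07 and 0.136 CPM per kilobase after siCtrl.

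Across both poly(A) comparisons, which share no library, 8 genes were called higher in both: DDX10, GNL2, NOL6, PES1, RRP1, RRP12, RRP9 and WDR74. Of the 18260 genes tested in both, 15.2% were called higher in both, 16.2% lower in both and 3.05% in opposite directions. The nucleolar genes named are 8 of the 16 higher calls after siPADI2 and 8 of the 14 in the libraries labelled R1810A. NHP2 and UBTF were called lower in both, and NOLC1 and TCOF1 were called in opposite directions. None of the 45 was called lower in all 3 comparisons, in which MYC was lower each time. DDX10 was called higher in all 3, and 13 genes, among them NCL, RRN3, NOP56, NOP58, DDX21 and GNL3, were called in none. The shares of all genes called in all 3 comparisons, or in none, were not counted. These numbers over 3 comparisons therefore have no background beside them and are not a result about the list. With GC content taken out DDX10 lost its call in the libraries labelled R1810A (0.2, adjusted p = 0.0588), and RRN3 and NOP58 gained one after siPADI2.

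The difference between the siPADI2 and the R1810A effect was tested directly in a joint fit of 8 libraries. There 8 of the 45 nucleolar genes passed, 4 in each direction, against 26.1% of all genes tested. NOLC1 had the largest difference, 1.26 ± 0.0965 on the log2 scale (adjusted p = 6.69e-07), followed by NHP2 with -1.09 ± 0.12 (adjusted p = 1.68e-05) and TCOF1 with 1.06 ± 0.097 (adjusted p = 3.18e-06). UTP18 differed by -0.6 ± 0.109 (adjusted p = 0.000999) and DKC1 by 0.54 ± 0.093 (adjusted p = 0.000682). A positive value means the higher effect after siPADI2. NHP2 was lower in both experiments, and more so after siPADI2, whereas UTP18 and DKC1 were called after siPADI2 alone. MYBBP1A (0.33), FBL (-0.36) and GAR1 (-0.34) passed with smaller differences. GAR1 lost its call with TMM within each experiment (-0.31, adjusted p = 0.0738) and with the size factors of DESeq2 (-0.34, adjusted p = 0.0527). FBL and GAR1 lost theirs with total counts (-0.21, adjusted p = 0.159, and -0.19, adjusted p = 0.263) and with no filter on low counts (-0.27, adjusted p = 0.102, and -0.25, adjusted p = 0.218). The count of lower differences was 2 without siCtrl replicate 2, siPADI2 replicate 2, WT replicate 1 or R1810A replicate 2, and the values of the 5 genes with the largest differences stayed past the threshold in all of these fits.

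**Figure D4:**
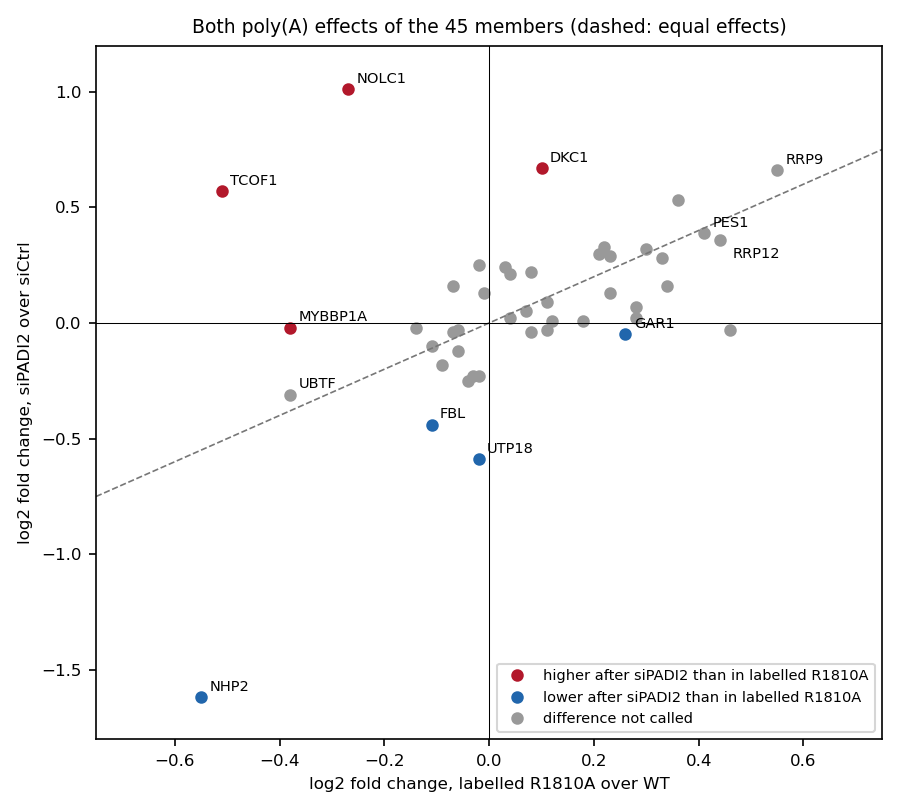
Log2 fold change after siPADI2 (y axis) against that in the libraries labelled R1810A (x axis) for the 45 genes in poly(A) RNA, with the dashed line marking equal effects. Red and blue points passed the test of the difference: NOLC1 and TCOF1 lie in the quadrant of opposite directions, NHP2 lies far below the line, and RRP9, PES1 and RRP12 lie near it.

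In chromatin RNA, where transcripts still held on the template are enriched, 10 genes were called lower after siPADI2 and 2 higher, and these calls followed the GC content of the transcripts. MYBBP1A had 14.2 CPM in both siPADI2 libraries, against 31.3 and 42.5 CPM after siCtrl (-1.38 ± 0.233, adjusted p = 1.39e-07). NOB1 had 7.81 and 8.5 CPM after siPADI2, against 19.5 and 15.9 CPM after siCtrl (-1.11 ± 0.293, adjusted p = 0.00122). RRP12 had 39.0 and 45.7 CPM after siPADI2, against 85.1 and 85.4 CPM after siCtrl (-1.01 ± 0.212, adjusted p = 3.22e-05). The groups of these 3 genes stood apart. After siPADI2 all 3 lay below the chromatin level of PTPRC, a marker nearly absent from poly(A) RNA. PES1 had 15.6 and 15.9 CPM after siPADI2 against 29.8 and 28.9 CPM after siCtrl (-0.89 ± 0.234, adjusted p = 0.00116). NOL6 had 21.6 and 18.1 CPM after siPADI2 against 33.7 and 37.0 CPM after siCtrl (-0.83 ± 0.221, adjusted p = 0.00141). BYSL had 7.81 and 4.25 CPM after siPADI2 against 9.89 and 13.1 CPM after siCtrl (-0.93 ± 0.346, adjusted p = 0.0266). The other genes called lower were TCOF1 (-0.82), GRWD1 (-0.7), NOP16 (-0.7) and RRP1B (-0.59). WDR12 had 52.9 and 50.0 CPM after siPADI2 against 33.7 and 29 CPM after siCtrl (0.71 ± 0.202, adjusted p = 0.00274). DDX10 had 56.1 and 53.1 CPM after siPADI2 against 34.9 and 34.7 CPM after siCtrl (0.65 ± 0.201, adjusted p = 0.0066). WDR12 and PES1, proteins of 1 complex, were thus called in opposite directions on chromatin.

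The core nucleolar proteins did not pass the test in chromatin RNA. NCL had 82.0 and 74.0 CPM after siPADI2 against 94.0 and 72.9 CPM after siCtrl, which overlapped (-0.1 ± 0.211, adjusted p = 0.76). NPM1 had 215 and 154 CPM after siPADI2 against 269 and 238 CPM after siCtrl (-0.46 ± 0.254, adjusted p = 0.154). FBL had 11.4 and 15.9 CPM after siPADI2 against 14.8 and 13.7 CPM after siCtrl, overlapping (-0.06 ± 0.272, adjusted p = 0.892). UBTF had 68.9 and 58.1 CPM after siPADI2 against 79.0 and 88.5 CPM after siCtrl (-0.4 ± 0.21, adjusted p = 0.132). RRN3 had 39.4 and 36.1 CPM after siPADI2 against 57.1 and 48.3 CPM after siCtrl (-0.48 ± 0.204, adjusted p = 0.0557). NPM1, UBTF and RRN3 were each lower in both siPADI2 libraries. NHP2 had 8.87 and 8.5 CPM after siPADI2 against 14.4 and 12.8 CPM after siCtrl, lower without passing the test (-0.65 ± 0.307, adjusted p = 0.0911). None of the 5 chaperones and scaffolds and none of the 7 snoRNP proteins was called by edgeR or DESeq2 without a correction for GC content, while with it NPM1, DDX21 and GNL3 were called lower. At an unadjusted p under 0.05 edgeR gave 0 scaffolds, and 1 snoRNP protein higher and 2 lower.

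Of the 15 nucleolar genes with a GC content over 55%, 7 were called lower in chromatin RNA and their median log2 fold change was -0.7. Among all protein-coding genes in that range 3543 of 5558 were called lower, with a median of -0.88. Of the 15 nucleolar genes under 45% GC, the 2 higher calls were made and the median was 0.06, against a median of 0.24 over protein-coding genes in that range. Across the 45 genes the Spearman correlation of GC content with the log2 fold change was -0.615, and over the 17758 protein-coding genes tested it was -0.692. These are correlations across genes, which are not independent replicates and share the same 4 libraries. In the poly(A) comparisons the correlation over the nucleolar genes was 0.221 after siPADI2 and 0.135 in the libraries labelled R1810A. When the fit took GC content out of each library, none of the 12 calls in chromatin RNA was kept. MYBBP1A then gave -0.41 (adjusted p = 0.186), NOB1 -0.6 (adjusted p = 0.129), RRP12 -0.16 (adjusted p = 0.619), PES1 -0.07 (adjusted p = 0.859) and WDR12 0.3 (adjusted p = 0.256). In that fit 6 other genes were called lower, all under 45% GC: RRN3 (-0.88, adjusted p = 0.00156), NPM1 (-0.82), DDX21 (-0.7), WDR43 (-0.67), WDR75 (-0.66) and GNL3 (-0.63). RRP1 (0.65) and WDR74 (0.73) were called higher. Of all genes 2862 were then called lower and 2343 higher. Protein-coding genes under 45% GC still had a median of -0.17, with 769 of 6375 called lower and 84 higher. The nucleolar genes of that range had a median of -0.35. The correlation with GC content became 0.417 over the 45 genes and 0.127 over protein-coding genes. Whether the 6 lower calls come from the genes or from the correction was not tested. MYC kept its call, at -0.71 (adjusted p = 0.0285). Which nucleolar genes are called on chromatin therefore depends on the treatment of GC content, and depth, which was lower in both siPADI2 libraries, cannot be told apart from the siRNA. With total counts as library sizes 4 were called higher and 6 lower. Without siCtrl replicate 5 the fit called 0 higher, with 3 at an unadjusted p under 0.05, and WDR12 then gave 0.57 (adjusted p = 0.123) and DDX10 0.61 (adjusted p = 0.0989). That fit called 6 lower, with BYSL at -0.75 (adjusted p = 0.248). Without siPADI2 replicate 1 DDX10 gave 0.6 (adjusted p = 0.0653) and 1 gene was called higher. Without siPADI2 replicate 2 the fit called 5 lower, with BYSL at -0.55 (adjusted p = 0.378) and NOL6 at -0.7 (adjusted p = 0.0638).

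**Figure D5:**
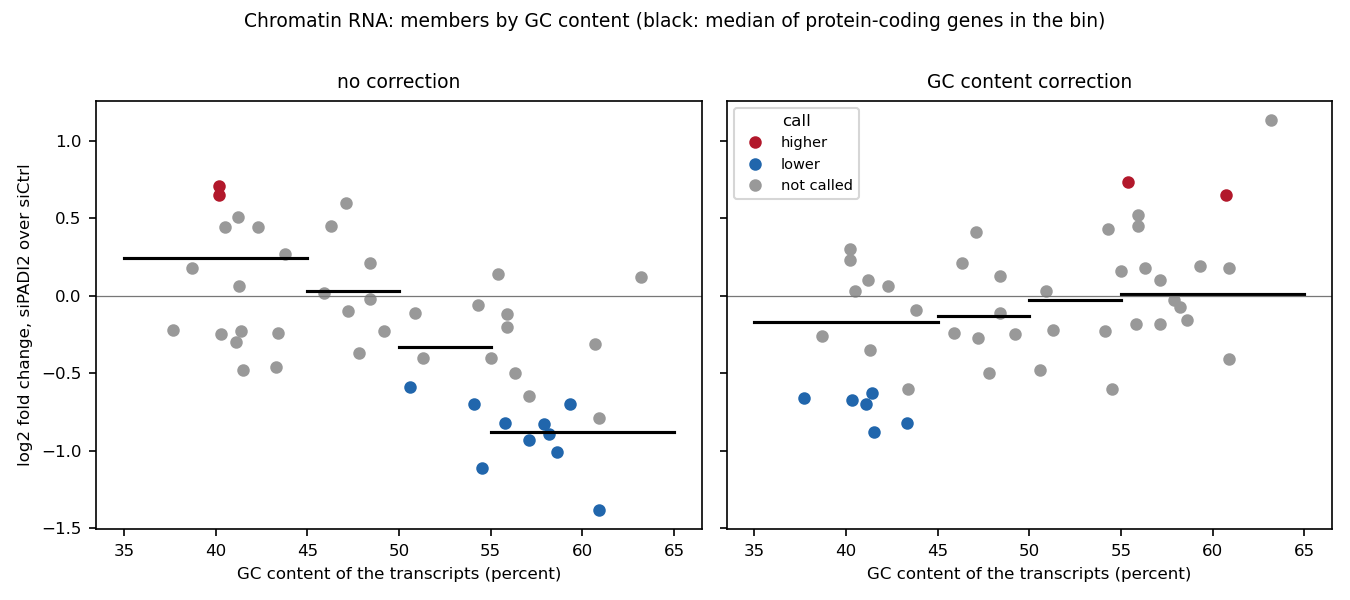
Log2 fold change after siPADI2 in chromatin RNA (y axis) against GC content of the transcripts (x axis, percent) for the 45 genes, without correction (left) and with GC content taken out (right). Black lines are medians of protein-coding genes under 45%, from 45 to 50%, from 50 to 55% and over 55% GC: the blue points sit at the right in the left panel and at the left in the right panel.

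The siPADI2 effect on chromatin was then set against that in poly(A) RNA in a joint fit of 8 libraries. Of the 45 nucleolar genes 8 had a lower effect on chromatin and 0 a higher one, 0 also at an unadjusted p under 0.05, against 8.05% of all genes called in either direction. The largest differences were RRP9 with -1.66 ± 0.439 (adjusted p = 0.004), TCOF1 with -1.59 ± 0.376 (adjusted p = 0.000826) and NOLC1 with -1.59 ± 0.385 (adjusted p = 0.00128). RRP12 and MYBBP1A differed by -1.57 ± 0.382 (adjusted p = 0.00128) and -1.57 ± 0.399 (adjusted p = 0.00241). RRP12, NOL6, PES1 and TCOF1 were called higher in poly(A) RNA and lower on chromatin. PES1, NOB1 and NOL6 passed too (-1.49, -1.33 and -1.32), and the calls of NOB1 and NOL6 were lost without siPADI2 poly(A) replicate 1 (adjusted p = 0.16 and 0.0997) or 2 (adjusted p = 0.0912 and 0.0843). NOLC1, which was higher in poly(A) RNA, had 40.8 and 34.7 CPM on chromatin after siPADI2 against 53.5 and 44.3 CPM after siCtrl (-0.37 ± 0.203, adjusted p = 0.149). The median of all genes in this contrast was -0.16, so values are to be read against it. With the size factors of DESeq2 it was 0.14, and 6 nucleolar genes were called higher beside 8 lower. With TMM within each fraction, chosen after seeing the data, 2 were called higher, NHP2 and UTP18, and 12 lower. With GC content taken out RRP9 gave -0.25 (adjusted p = 0.964), RRP12 -0.25 (adjusted p = 0.822), MYBBP1A -0.15 (adjusted p = 1.0) and TCOF1 -0.51 (adjusted p = 0.232), while NOLC1 kept its call. Without siCtrl poly(A) replicate 2, 23 were called lower and the median of all genes was -0.44. Without siPADI2 chromatin replicate 1, 14 were called lower, and without siPADI2 chromatin replicate 2, 4 were called higher.

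Other genes of the pathway, listed with earlier results of these data known, were called in both directions in poly(A) RNA. Of 20 further genes of RNA polymerase I transcription, 5 were called higher and 5 lower after siPADI2, and 2 higher and 5 lower for the libraries labelled R1810A. After siPADI2 both shares were below the 28.8% and 27.9% of all genes tested. For the libraries labelled R1810A the share of higher calls was below the 22.6% of all genes. The share of lower calls there was near the 24.3% of all genes. POLR2L, a subunit shared by the 3 nuclear RNA polymerases, was lower in each comparison. It had 35.9 and 26.4 CPM after siPADI2 against 57.2 and 45.9 CPM after siCtrl (-0.72 ± 0.161, adjusted p = 0.00568). TOP1, a topoisomerase, was higher in both poly(A) comparisons, with 208 and 212 CPM after siPADI2 against 130.1 and 133 CPM after siCtrl (0.67 ± 0.0821, adjusted p = 4.69e-09).

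Of 47 further small subunit genes tested, 14 were called higher and 9 lower after siPADI2, and 13 higher and 11 lower for the libraries labelled R1810A. After siPADI2 these are 29.8% and 19.1%, against 28.8% and 27.9% of all genes tested. For the libraries labelled R1810A they are 27.7% and 23.4%, against 22.6% and 24.3%. FCF1, a processome protein, had 20.4 and 19.9 CPM after siPADI2, against 57.6 and 67.5 CPM after siCtrl (-1.64 ± 0.0941, adjusted p = 5e-18). FCF1 had 28.8 and 31.8 CPM in the libraries labelled R1810A, against 71.9 and 76.4 CPM in WT (-1.29 ± 0.067, adjusted p = 8.6e-09). DHX33, a helicase, fell in both as well (-1.33 and -0.99), and DHX37, the helicase that frees U3, rose after siPADI2 (0.98 ± 0.0911, adjusted p = 6.09e-12) and in the libraries labelled R1810A (0.29 ± 0.0641, adjusted p = 0.00214).

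Of 53 further large subunit genes tested, 19 were called higher and 10 lower after siPADI2, and 10 higher and 6 lower for the libraries labelled R1810A. After siPADI2 these are 35.8% and 18.9%, against 28.8% and 27.9% of all genes tested. For the libraries labelled R1810A they are 18.9% and 11.3%, against 22.6% and 24.3%. NOC3L fell in both (-0.54 and -0.66), and EIF6, which keeps free large subunits apart from small ones, fell after siPADI2 (-0.56 ± 0.0836, adjusted p = 3.77e-07). Of 13 further snoRNP genes tested, 4 were called higher after siPADI2 (30.8%). For the libraries labelled R1810A 6 were called higher (46.2%) and 1 lower (7.69%). The higher ones in those libraries included RUVBL1 (0.38 ± 0.0656, adjusted p = 0.000355) and RUVBL2 (0.4 ± 0.0775, adjusted p = 0.00214), the ATPases that help to assemble these particles. Of 15 genes of the rRNA exosome and decay, 4 were called higher (26.7%) and 3 lower (20.0%) after siPADI2. For the libraries labelled R1810A 3 were called higher (20.0%) and 2 lower (13.3%). MPHOSPH6, an exosome cofactor, fell in both (-0.72 and -0.38).

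Of 28 genes that MYC is known to induce outside the nucleolus, 6 were called higher and 8 lower after siPADI2, with a median log2 fold change of -0.04. These are 21.4% and 28.6% of the list, against 28.8% and 27.9% of all genes. For the libraries labelled R1810A 5 were called higher and 6 lower, with a median of 0.02, which are 17.9% and 21.4% against 22.6% and 24.3% of all genes. APEX1, a DNA repair endonuclease, had 31.4 and 32.8 CPM after siPADI2, against 81.5 and 82.8 CPM after siCtrl (-1.35 ± 0.0854, adjusted p = 8.42e-17). It had 29.9 and 31.8 CPM in the libraries labelled R1810A, against 68.7 and 70.3 CPM in WT (-1.17 ± 0.061, adjusted p = 8.74e-09). POLR3G, a subunit of RNA polymerase III, was higher in both (0.84 and 1.26). Of 12 genes of the MYC network, MYC itself among them, 5 were called higher and 4 lower after siPADI2, and 3 higher and 5 lower for the libraries labelled R1810A. After siPADI2 these are 41.7% and 33.3%, both above the shares of all genes. For the libraries labelled R1810A the lower calls are 41.7%, above the 24.3% of all genes, and the share of higher calls was near 22.6%. MYCL, a relative of MYC, had 25.1 and 20.7 CPM after siPADI2 against 10.3 and 11.0 CPM after siCtrl (1.1 ± 0.109, adjusted p = 3.81e-11), and 27.2 and 28.7 CPM in the libraries labelled R1810A against 18.8 and 20.6 CPM in WT (0.5 ± 0.0707, adjusted p = 6.72e-05). MXD1, an antagonist that binds the partner of MYC, fell in both (-0.99 and -0.89). MYC was thus lower and MYCL higher in all 4 of these libraries.

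In chromatin RNA the further lists for transcription and subunit assembly had more lower than higher calls, as had all genes tested (20.1% lower and 12.2% higher). Their relation to GC content was not tested. There 4 of 20 polymerase I genes, 10 of 47 small subunit genes and 7 of 53 large subunit genes were called lower, and 1, 3 and 4 were called higher. The shares of lower calls, 20.0%, 21.3% and 13.2%, were near or below that of all genes. Of the 28 MYC-induced genes outside the nucleolus, 5 were called lower and 1 higher, and of the 12 MYC network genes 5 were called lower. These lower calls are 17.9% and 41.7%, against 20.1% of all genes. The further snoRNP and the exosome lists had 1 lower call each. PWP2, a processome protein, had 21.6 and 15.9 CPM after siPADI2 against 51.2 and 62.9 CPM after siCtrl (-1.6 ± 0.219, adjusted p = 3.53e-11). DHX37, which was higher in poly(A) RNA, had 33.7 and 32.2 CPM on chromatin after siPADI2 against 70.5 and 82.3 CPM after siCtrl (-1.21 ± 0.211, adjusted p = 3.55e-07). The PWP2 and DHX37 values are without the GC content correction, with which none of the uncorrected chromatin calls of the listed nucleolar genes was kept.

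Nucleolar genes with and without an E-box were both called in each direction in poly(A) RNA. Of the 18 with one, 7 were called higher and 4 lower after siPADI2, with a median log2 fold change of 0.05. Of the 20 without one, 6 were called higher and 3 lower, with a median of 0.06. NOLC1, TCOF1, RRP12, NOP58, RRP1B, RRS1 and DDX18 had no window and are in neither set. Of these, NOLC1, TCOF1 and RRP12 were called higher after siPADI2. In the libraries labelled R1810A, 6 of the 18 were called higher and 1 lower, against 7 and 2 of the 20. Of all genes tested 28.8% were called higher and 27.9% lower after siPADI2, and 22.6% and 24.3% in the libraries labelled R1810A. In chromatin RNA 0 of the 18 were called higher and 4 lower (22.2%). Of the 20 without an E-box, 2 were called higher there (10.0%) and 3 lower (15.0%), against 12.2% and 20.1% of all genes. No test of the difference between these sets was made. The windows printed above belong to RRP9 and PES1, which rose, as well as to FBL and UTP18, which fell.

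Neither of the 7-base words ATCCACA and TACCATG, which earlier results of these data had singled out in 3′ UTRs, was found in the 3′ UTR of any of the 45 genes. Of the genes tested after siPADI2, 18.0% (2474 of 13752) held one. The median 3′ UTR of the nucleolar genes was 521 bases, against 1324 bases over the genes tested. The shares were not matched for that length. Several of the 45 host snoRNA genes in their introns, but these had few counts. SNORD19C, a C/D snoRNA gene inside GNL3, had 5 and 11 counts after siPADI2 and 9 and 22 counts after siCtrl in libraries of unequal depth (log2 fold change -1.58 ± 0.511, edgeR adjusted p = 0.00808). SNORD19C had 8 and 5 counts in the libraries labelled R1810A, against 28 and 16 counts in WT (-1.75 ± 0.502, adjusted p = 0.0115). GNL3 itself was not called in either. Poly(A) selection does not retain mature snoRNAs well, and what these counts come from was not tested.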

How the data were processed

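RNA-seq gene counts of 12 libraries, 2 in each of 6 groups, were analysed. Per the submitters' processing notes the authors trimmed reads with Trimmomatic and aligned them with STAR. Per the file headers, featureCounts (1.5.1 for poly(A), 1.4.6-p2 for chromatin RNA) gave the deposited counts of read pairs over GENCODE 19 exons on hg19, strand option 2. Per the labels' protocols, TruSeq Stranded kits were used, mRNA for poly(A) RNA and Total RNA with Ribo-Zero for chromatin RNA. Of the 57820 identifiers 52338 were matched to a symbol through GENCODE 29. Whether libraries of 1 group are separate cultures is not given in the sources used here. The p-values then measure the spread between these libraries alone, which may be technical.

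edgeR 4.0.16 (R 4.3.3, TMM, filterByExpr, robust quasi-likelihood F test) was fitted to the 4 libraries of each comparison, or 8 for a difference of effects, with Benjamini-Hochberg adjustment over all genes tested and a threshold of 0.05. The SE is the log2 fold change divided by the root of F. Members and lists were chosen with earlier results of these data known. Per-library values were given for NCL, NPM1, FBL, UBTF, RRN3, MYC and the 6 called members with the largest change in each direction, and for the 5 largest differences of effects. From other lists at most 4 called genes were named, and further genes were chosen after their values were seen. Alternatives were total counts, DESeq2 1.42.0 and its size factors, no filter, a GC content correction (lowess, span 0.3), a replicate block, a joint fit and leaving out each library. On simulated counts, 74% of 2-fold changes were recovered after siPADI2 and 70% in the R1810A comparison, but 23% in chromatin RNA. In the chromatin minus poly(A) contrast 0% were recovered. The changed genes were drawn at random from all genes in each fit and were not matched to the levels of the nucleolar genes. These shares therefore do not give the recovery for the 45 genes, of which 8 were called in that contrast. Figures were drawn with matplotlib 3.10.9.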

Additional observations from a re-analysis of the deposited data

Results flagged for a closer look

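The effects of siPADI2 and of the R1810A label on poly(A) RNA differed by the test of the difference itself for 8 nucleolar genes. On the log2 scale the difference, siPADI2 effect minus R1810A effect, was 1.26 for NOLC1, -1.09 for NHP2, 1.06 for TCOF1, -0.6 for UTP18 and 0.54 for DKC1. Each of these 5 stayed past the threshold under every alternative run. The other differences were -0.36 for FBL, -0.34 for GAR1 and 0.33 for MYBBP1A. In edgeR, FBL lost its call without siCtrl replicate 1 or 2, siPADI2 replicate 2, WT replicate 1 or R1810A replicate 2 (adjusted p from 0.0542 to 0.14). GAR1 lost it without siCtrl replicate 2, siPADI2 replicate 2, WT replicate 1 or 2 or R1810A replicate 2 (adjusted p from 0.105 to 0.355). MYBBP1A lost it without siCtrl replicate 2, siPADI2 replicate 2, WT replicate 1 or 2 or R1810A replicate 1 (adjusted p from 0.0597 to 0.0738).

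The siPADI2 effect differed between chromatin and poly(A) RNA for 8 nucleolar genes. The difference, chromatin effect minus poly(A) effect, was -1.66 for RRP9, -1.59 for TCOF1, -1.59 for NOLC1, -1.57 for RRP12, -1.57 for MYBBP1A, -1.49 for PES1, -1.33 for NOB1 and -1.32 for NOL6. With GC content taken out, NOLC1 alone of these 8 kept its call (-1.52, edgeR adjusted p = 2.05e-06).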

How the results depend on the processing

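Counts of called nucleolar genes are given as higher and lower. After siPADI2 in poly(A) RNA (16 and 7, median 0.05), total counts gave 25 and 3 with a median of 0.23. No filter gave 4 lower and a median of 0.08, DESeq2 gave 4 lower, and the GC correction gave a median of 0.09. In the libraries labelled R1810A (14 and 5, median 0.07), total counts gave a median of 0.13. In chromatin RNA (2 and 10, median -0.23), total counts gave 4 and 6 with a median of -0.13, and no filter a median of -0.3. DESeq2 gave 0 and 5 with a median of -0.28 (2 and 11 at an unadjusted p under 0.05), and the GC correction 6 lower with a median of -0.09. For the siPADI2 minus R1810A difference (4 and 4), total counts and no filter each gave 2 lower. For the chromatin minus poly(A) difference (0 and 8), size factors of DESeq2 gave 6 higher, total counts 1 and 14, the GC correction 3 and 5, and TMM within each fraction 2 higher.

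Leaving out each library in turn gave these ranges. After siPADI2 in poly(A) RNA 11 to 12 were higher and 4 to 6 lower, with medians of 0.03 to 0.1. In the libraries labelled R1810A 7 to 15 were higher and 5 lower, with medians of 0.0 to 0.14. On chromatin 0 to 2 were higher and 5 to 9 lower, with medians of -0.25 to -0.19. The siPADI2 minus R1810A difference had 3 to 4 higher and 2 to 5 lower, and the chromatin minus poly(A) difference 0 to 4 higher and 6 to 23 lower. The replicate block gave 9 lower in the libraries labelled R1810A and 10 lower for the siPADI2 minus R1810A difference. The numbers do not pair the libraries by their labels, and deviations of same-numbered libraries correlated at r = 0.0888 after siPADI2 and 0.418 in the RNAP2 experiment. For chromatin RNA no block could be fitted, because its groups share only replicate number 1.

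Genes that were not called changed sign. RRN3 gave 0.08 with total counts and NPM1 -0.02 with the GC correction and -0.05 without siPADI2 replicate 1, after siPADI2. NCL in the libraries labelled R1810A ranged from -0.01 without R1810A replicate 2 to 0.15 without R1810A replicate 1. On chromatin NCL gave 0.03 and FBL 0.06 with total counts, FBL 0.43 and UBTF 0.16 with the GC correction, while leaving out libraries gave -0.31 (siCtrl replicate 5) to 0.1 (siCtrl replicate 1) for NCL and -0.32 (siPADI2 replicate 2) to 0.16 (siPADI2 replicate 1) for FBL. The cause of these shifts was not tested. Chromatin depth, 2.72 to 7.04 in units of 1000000 counts, limits what can be called there.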
